A study of Rattus norvegicus with 16 samples.

Results

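The kidney makes the active form of vitamin D, degrades it, and reabsorbs filtered calcium, and 10 genes of these tasks were followed through the renal transcriptomes of 16 rats. They were the rows of the deposited table with the gene names Cyp24a1, Cyp27b1, Vdr, Calb1, Trpv5, Trpv6, Slc8a1, Pth1r, Casr and Atp2b1, 10 of 35849 rows, and each name had a single row. The rats were male Sprague Dawley animals, 6 to 8 weeks old at the start, in groups of 4 named normal, DN (diabetic nephropathy), and SIN (20 mg/kg) or SIN (40 mg/kg) for sinomenine. The normal rats received citrate buffer and a normal diet. The other 12 rats received streptozotocin, a toxin of the insulin-producing beta cells, at 45 mg/kg, were kept on a diet high in glucose and fat, and were selected for a blood glucose over 16.7 mmol/L. The SIN groups in addition received sinomenine, an alkaloid, daily for 8 weeks at 20 or 40 mg/kg. The toxin, the diet and the selection on glucose differ together between the normal rats and the others, and no group received SIN without them.

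In the proximal tubule, Cyp27b1 adds the hydroxyl group that activates vitamin D, and Cyp24a1 starts the breakdown of the active hormone. The hormone acts through the nuclear receptor Vdr, which in turn raises Cyp24a1 transcription and lowers that of Cyp27b1. Parathyroid hormone, through its receptor Pth1r, raises Cyp27b1 and represses Cyp24a1, and Casr senses extracellular calcium, in the kidney above all in the thick ascending limb. In the distal convoluted and connecting tubules calcium enters the cell through the channels Trpv5 and Trpv6, is carried by the buffer calbindin (Calb1) and leaves through the sodium-calcium exchanger Slc8a1 and the calcium pump Atp2b1.

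The deposited estimated counts summed to between 19616312 and 25217030 per rat. Levels are given as CPM, counts scaled to a library total of 1000000 after TMM normalization, which evens out differences in library composition. Groups were compared by edgeR's quasi-likelihood test, and a gene was called when its p-value, adjusted over all genes of the comparison, was under 0.05. Serial numbers of the libraries ran consecutively within each group, so that a batch of libraries and the group cannot be told apart. The labels give the tissue as kidney, and proximal tubule markers summed to between 10510 and 16551 CPM in every rat, with none of 10 at 0 in all rats. DN replicate 3 stood apart, with 1126 CPM in the sum of 10 smooth muscle and stroma markers against 418 to 516 in the other DN rats and 310 to 446 elsewhere. Its 9 urothelium markers summed to 278 CPM against at most 200 CPM in any other rat. The DN comparisons of the 10 genes were therefore also fitted without it. Results of the other gene lists and of the cell type markers were not. In whole renal tissue, fewer cells of a type and less RNA per cell cannot be told apart.

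RefSeq promoter sequences (GRCr8) were at hand for 8 of the 10 genes, and not for Cyp24a1 or Calb1. The 250 bases before the start were searched on both strands for 5 motifs. The 3 sequences shown belong to the activating hydroxylase, the calcium receptor and the exchanger, whose levels are described next. Capitals mark a CCAAT box (letters CCAAT) or the TATA box letters TATAAA in Cyp27b1, the nuclear receptor hexamer AGGTCA in Casr, and a CCAAT box in Slc8a1, each of them read on the opposite strand.

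Cyp27b1, chr7:64756376-64756625 (+): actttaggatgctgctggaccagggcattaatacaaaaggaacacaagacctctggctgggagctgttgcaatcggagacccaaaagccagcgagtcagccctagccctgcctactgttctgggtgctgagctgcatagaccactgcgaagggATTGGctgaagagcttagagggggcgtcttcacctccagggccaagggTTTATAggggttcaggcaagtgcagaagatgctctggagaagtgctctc

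Casr, chr11:77740364-77740613 (+): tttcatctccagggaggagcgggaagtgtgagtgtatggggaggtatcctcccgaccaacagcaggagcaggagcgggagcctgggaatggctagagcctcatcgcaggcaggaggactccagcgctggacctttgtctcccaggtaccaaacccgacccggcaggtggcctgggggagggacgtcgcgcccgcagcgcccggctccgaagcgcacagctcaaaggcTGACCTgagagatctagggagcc

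Slc8a1, chr6:19023309-19023558 (+): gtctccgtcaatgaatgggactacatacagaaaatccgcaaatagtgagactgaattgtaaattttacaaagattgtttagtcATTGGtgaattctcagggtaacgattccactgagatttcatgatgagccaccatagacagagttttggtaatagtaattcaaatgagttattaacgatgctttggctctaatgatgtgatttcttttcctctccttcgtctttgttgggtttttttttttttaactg

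In Cyp27b1 the CCAAT box began 97 and the TATA box 49 bases before the start, in Casr the hexamer 23 bases before it, and in Slc8a1 the CCAAT box 167 bases before it. Such matches are common, since 34.02% of 33469 rat promoters held the CCAAT box, 12.9% the TATA box and 14.1% the hexamer. The hexamer was also found in the window of Trpv6, 175 bases before the start. The 8 windows held neither the cyclic AMP response element TGACGTCA, found in 1.59% of all promoters, nor the vitamin D response element of the DR3 type, found in 0.314%. Cyp24a1 and Calb1 had no window and were not searched for either element. The windows of Casr and Slc8a1 lie within the span of their own gene, which therefore has further starts upstream, and which start is used in these kidneys was not measured.

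The genes differed widely in level, and the hormone receptor Pth1r led. Per kilobase of the length given in the table, Pth1r stood at 216 ± 34.2 CPM per kilobase (SD, n = 4) in normal rats, followed by Calb1 at 88.4 ± 10.98, Vdr at 39.2 ± 4.25, Cyp24a1 at 30.7 ± 4.93 and Casr at 21.4 ± 1.17. Slc8a1 had 12.5 ± 1.07 and Atp2b1 11.7 ± 2.50 CPM per kilobase, and Cyp27b1, Trpv5 and Trpv6 were the lowest with 2.27 ± 2.13, 1.598 ± 0.72 and 0.133 ± 0.090. The ranges of the 4 normal rats overlapped for the neighbours Vdr and Cyp24a1, for Slc8a1 and Atp2b1, and for Cyp27b1 and Trpv5, which were thus not separated in this order. Trpv6 rested on 3 to 36 counts and Cyp27b1 on 12 to 258 counts per rat, whereas the other 8 genes had at least 67 counts in every rat. Trpv5 and Trpv6 are neighbouring genes of similar sequence, and how reads common to both were assigned is not given in the sources used here.

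**Figure D1:**
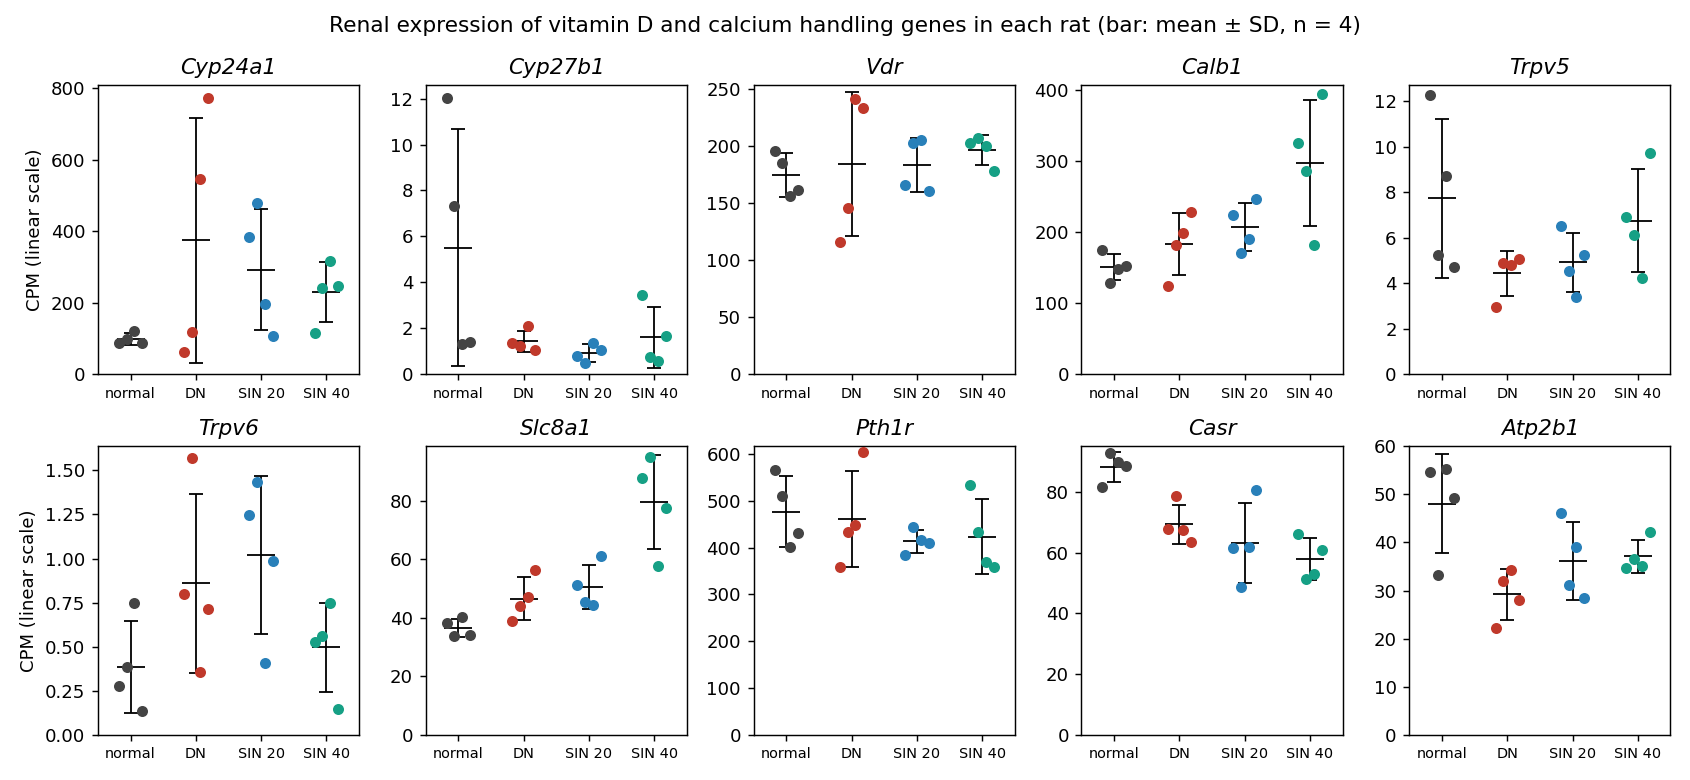
Level of each of the 10 genes in CPM on a linear axis that starts at 0, with 1 point per rat and a bar for the mean ± SD of the 4 rats of a group. Cyp24a1 spreads from 60.9 to 773 CPM in the DN rats, and Slc8a1 lies higher in every SIN (40 mg/kg) rat than in any normal or DN rat.

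Cyp24a1 (ENSRNOG00000013062), the catabolic hydroxylase, was even among the normal rats and very uneven among the streptozotocin-treated rats. It stood at 87.4, 97.8, 121 and 87.7 CPM in the normal rats and at 60.9, 118, 547 and 773 CPM in the DN rats. DN replicate 1 was thus below every normal rat, DN replicate 2 was within the normal range, and the other 2 were at least 4 times the highest normal value. The SIN (20 mg/kg) rats had 385, 480, 197 and 108 CPM and the SIN (40 mg/kg) rats 115, 242, 318 and 248 CPM. In each SIN group 1 rat lay within the normal range and 3 lay above it. The ratio of the highest to the lowest rat was 1.39 among the normal rats, 12.7 among the DN rats, and 4.44 and 2.77 with SIN at 20 and 40 mg/kg. Among 16404 genes, the SD of log2 CPM of Cyp24a1 exceeded that of 98.7% in the DN group, 95.8% and 88.5% in the SIN groups and 48.9% in the normal group. DN replicates 4 and 3, the rats with the highest Cyp24a1, had 418 and 1126 CPM of smooth muscle and stroma markers. The part of these markers in the level of Cyp24a1 was not tested.

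By edgeR's quasi-likelihood test, Cyp24a1 rose in both SIN groups relative to the normal group, with a log2 fold change of 1.57 ± 0.38 (SE, adjusted p = 0.0402) at 20 mg/kg and 1.22 ± 0.26 (adjusted p = 0.0221) at 40 mg/kg. The DN over normal log2 fold change was larger, 1.94 ± 0.67, but was not called (adjusted p = 0.0667). It was 1.70 without DN replicate 3, 1.30 without DN replicate 4 and 2.29 without DN replicate 1, the last of which was called (adjusted p = 0.0275), and it was called by DESeq2 (adjusted p = 0.0439). When all 16 rats shared a single fit, and with it the spread of the DN rats, neither SIN group was called over normal (adjusted p = 0.161 and 0.268), whereas DN over normal was (adjusted p = 0.0381). Leaving out any rat but SIN (20 mg/kg) replicate 4 also ended the call at 20 mg/kg (adjusted p up to 0.115). At 40 mg/kg it ended without normal replicate 1 or 4 or SIN replicate 2 or 3 (adjusted p up to 0.0764).

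Cyp27b1 (ENSRNOG00000046214), the activating hydroxylase, differed as much within the normal group as between groups. It was at 12.01, 7.31, 1.32 and 1.38 CPM in the normal rats and at 1.37, 1.21, 2.103 and 1.05 CPM in the DN rats. The SIN (20 mg/kg) rats had 0.774, 0.477, 1.37 and 1.03 CPM and the SIN (40 mg/kg) rats 3.43, 0.750, 0.560 and 1.65 CPM. Normal replicates 1 and 2 were above every other rat, while normal replicates 3 and 4 lay within the ranges of the DN and SIN (40 mg/kg) rats. Against SIN (20 mg/kg), normal replicate 3 lay within the range and replicate 4 just above it. The log2 fold change over normal was -1.93 ± 0.68 in DN (adjusted p = 0.0734), -2.61 ± 0.72 with SIN at 20 mg/kg (adjusted p = 0.0638) and -1.80 ± 0.78 at 40 mg/kg (adjusted p = 0.206), none of them called by edgeR in these fits. DESeq2 called the first 2 (adjusted p = 0.0123 and 0.00113), and the single edgeR fit of 16 rats called the one at 20 mg/kg (adjusted p = 0.0344). Without normal replicate 3 or 4 the test at 20 mg/kg was called by edgeR (adjusted p = 0.0362 and 0.0454).

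Set against each other within a rat, the hydroxylases spanned a wide range. The log2 ratio of Cyp27b1 to Cyp24a1 CPM was -2.86, -3.74, -6.52 and -5.99 in the normal rats and -5.47, -6.61, -8.02 and -9.53 in the DN rats. It was -8.96, -9.97, -7.17 and -6.70 with SIN at 20 mg/kg and -5.06, -8.33, -9.15 and -7.23 at 40 mg/kg. Every SIN (20 mg/kg) rat was therefore below every normal rat, but by a small margin, -6.70 in SIN replicate 4 against -6.52 in normal replicate 3. These values rest on 22 and 30 counts of Cyp27b1, which itself overlapped between these groups. The DN and SIN (40 mg/kg) groups each overlapped the normal group in the ratio. The ratio is a description of the same counts and was given no test.

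**Figure D2:**
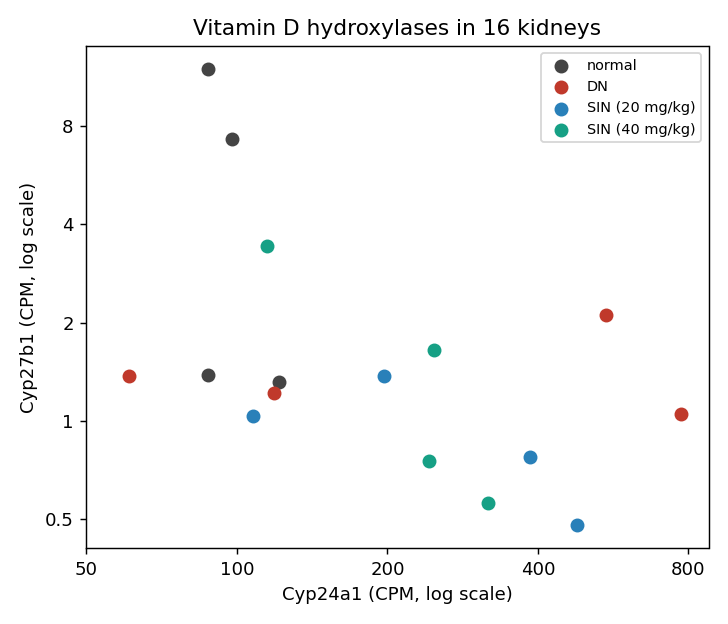
Cyp24a1 (horizontal) against Cyp27b1 (vertical), both in CPM on log axes, with 1 point per rat coloured by group. The points of the normal rats form a vertical band between 87.4 and 121 CPM of Cyp24a1 and between 1.32 and 12.01 CPM of Cyp27b1, while the other rats range from 60.9 to 773 CPM of Cyp24a1 at no more than 3.43 CPM of Cyp27b1.

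Vdr (ENSRNOG00000054420), the vitamin D receptor, was not called in any of the 6 comparisons, and its fitted log2 fold changes lay between -0.01 and 0.17. Its levels were 196, 185, 156 and 162 CPM in the normal rats and 116, 146, 242 and 233 CPM in the DN rats. The 2 DN rats with the highest Vdr were also those with the highest Cyp24a1. The SIN (20 mg/kg) rats had 166, 202, 205 and 161 CPM and the SIN (40 mg/kg) rats 203, 207, 200 and 178 CPM, ranges that overlapped those of the normal and DN rats. The 95% interval of the DN over normal log2 fold change ran from -0.42 to 0.58, which leaves room for moderate differences either way.

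Of the genes of transcellular calcium transport, the exchanger Slc8a1 and the buffer Calb1 were highest with SIN at 40 mg/kg. Slc8a1 (ENSRNOG00000008479) stood at 38.2, 33.7, 40.2 and 34.2 CPM in the normal rats, 38.8, 43.9, 46.9 and 56.3 CPM in the DN rats, and 51.2, 45.5, 44.5 and 61.0 CPM with SIN at 20 mg/kg. The SIN (40 mg/kg) rats had 87.8, 94.99, 57.8 and 77.5 CPM. These 4 values were above all normal and all DN values, and the SIN (20 mg/kg) rats were above all normal rats. Slc8a1 rose over normal by a log2 fold change of 1.12 ± 0.15 (SE, adjusted p = 0.00246, edgeR) at 40 mg/kg and 0.47 ± 0.12 (adjusted p = 0.0467) at 20 mg/kg. The first call held without any single rat (adjusted p up to 0.0117) and under the 6 other settings tried, whereas the second was lost without any single rat (adjusted p 0.0586 to 0.14), with no filter (adjusted p = 0.0515) and in the single fit (adjusted p = 0.08). The DN over normal log2 fold change of 0.35 ± 0.13 was not called (adjusted p = 0.0753), although DESeq2 called it (adjusted p = 0.0455).

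Calb1 (ENSRNOG00000007456) was measured at 174, 129, 148 and 152 CPM in the normal rats and 124, 181, 199 and 227 CPM in the DN rats. It was at 224, 170, 190 and 246 CPM with SIN at 20 mg/kg and at 325, 286, 181 and 393 CPM at 40 mg/kg. All SIN (40 mg/kg) rats lay above all normal rats, by a small margin for replicate 3. Calb1 rose in that group by a log2 fold change of 0.97 ± 0.20 over normal (adjusted p = 0.0217, edgeR), and this call was lost without normal replicate 2, 3 or 4 or SIN replicate 2 (adjusted p up to 0.0655). The values of 0.29 ± 0.18 in DN (adjusted p = 0.265) and 0.46 ± 0.14 with SIN at 20 mg/kg (adjusted p = 0.0824) were not called by edgeR, and the latter was called by DESeq2 (adjusted p = 0.0221).

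The other listed markers of the segments that hold Calb1 did not move with it to a call. Of 8 further distal convoluted and connecting tubule markers tested, none was called in SIN (40 mg/kg) over normal by edgeR and 0 by DESeq2, with 2 at an unadjusted p under 0.05 and a median log2 fold change of 0.07. Summed over 9 such markers the level was 909 to 1105 CPM in the normal rats, 807 to 1054 CPM in DN, 760 to 928 CPM with SIN at 20 mg/kg and 855 to 1135 CPM at 40 mg/kg. None of the 9 markers was at 0 in all rats. In the separate list of transcellular calcium transport, 2 of 11 genes tested were called higher in SIN (40 mg/kg) over normal and 0 lower (edgeR, 5.97% of all genes in either direction). They were Wnk4 (log2 fold change 0.74, adjusted p = 0.015) and Bspry (0.52, adjusted p = 0.0157). The part of the segments in the level of Calb1 was not tested.

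**Figure D3:**
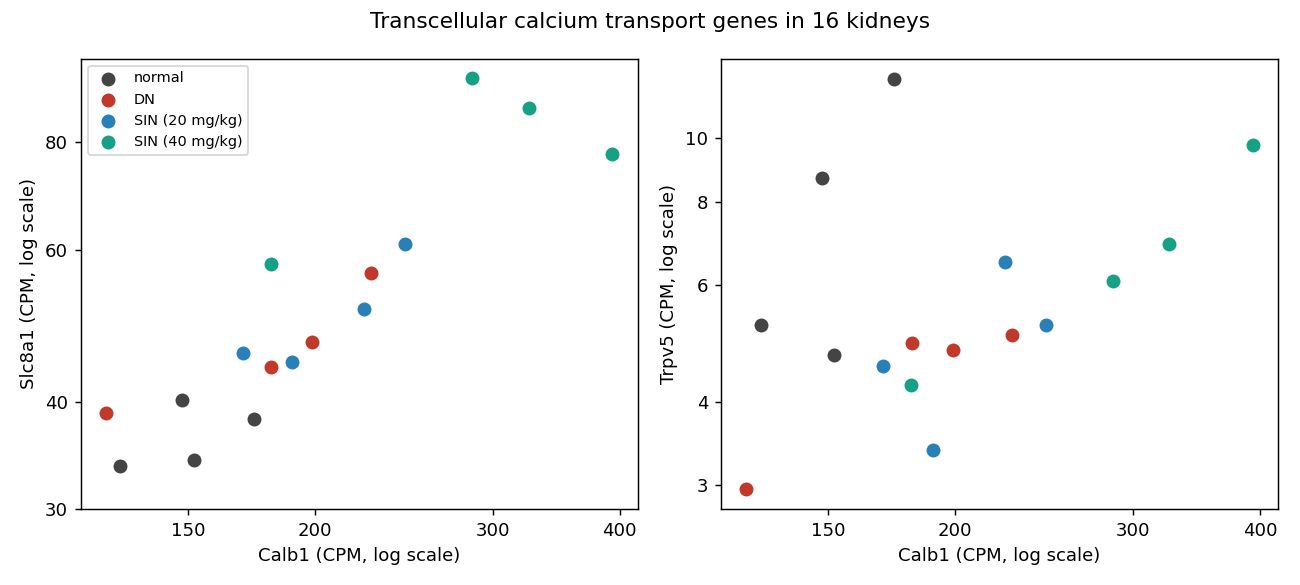
Calb1 (horizontal) against Slc8a1 (left) and Trpv5 (right), in CPM on log axes, with 1 point per rat coloured by group. With Slc8a1, 3 of the 4 SIN (40 mg/kg) rats lie at the upper right, up to 393 CPM of Calb1 and 94.99 CPM of Slc8a1, and with Trpv5 the highest value, 12.2 CPM, is that of a normal rat with 174 CPM of Calb1.

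The apical channels were low and were not called in any of the 6 comparisons. Trpv5 (ENSRNOG00000015394), the main epithelial calcium channel of the kidney, had 12.2, 5.23, 8.69 and 4.71 CPM in the normal rats and 2.97, 4.91, 4.79 and 5.05 CPM in the DN rats. It had 6.49, 4.53, 3.39 and 5.22 CPM with SIN at 20 mg/kg and 6.92, 6.10, 4.25 and 9.73 CPM at 40 mg/kg. The groups overlapped, and normal replicates 1 and 3 and SIN (40 mg/kg) replicate 4 were the 3 highest rats. The DN over normal log2 fold change was -0.80 ± 0.32 (adjusted p = 0.103, edgeR). Trpv6 (ENSRNOG00000014714) was between 0.133 and 1.57 CPM in all 16 rats, and its 95% intervals in DN over normal (-0.17 to 2.43) and in SIN (40 mg/kg) over DN (-2.01 to 0.46) included 0. In SIN (20 mg/kg) over normal the interval was 0.18 to 2.60 around a log2 fold change of 1.39 (unadjusted p = 0.028, adjusted p = 0.177, edgeR).

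Atp2b1 (ENSRNOG00000004026), the basolateral calcium pump, fell in the DN kidney. It had 54.6, 33.2, 55.2 and 49.2 CPM in the normal rats and 22.3, 32.1, 34.2 and 28.1 CPM in the DN rats. Normal replicate 2, at 33.2 CPM, lay among the DN values and the other 3 normal rats lay above them. The log2 fold change was -0.72 ± 0.18 (adjusted p = 0.0275, edgeR). The SIN (20 mg/kg) rats had 46.2, 31.1, 39.04 and 28.4 CPM and the SIN (40 mg/kg) rats 34.7, 36.5, 35.1 and 42.2 CPM, and neither group was called over normal (log2 fold change -0.41 ± 0.19, adjusted p = 0.261, and -0.38 ± 0.15, adjusted p = 0.181). The DN call was kept without DN replicate 3 or normal replicate 2 and lost without any other single rat (adjusted p up to 0.0795).

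Casr (ENSRNOG00000002265), the calcium receptor, had the smallest coefficient of variation of the 10 genes among the normal rats (5.44%), and fell in DN and with SIN at 40 mg/kg. It stood at 81.5, 92.9, 89.8 and 88.6 CPM in the normal rats and at 67.9, 78.5, 67.6 and 63.4 CPM in the DN rats. The SIN (20 mg/kg) rats had 61.6, 48.8, 61.7 and 80.7 CPM and the SIN (40 mg/kg) rats 66.1, 51.3, 53.0 and 60.8 CPM. Every one of the 12 streptozotocin-treated rats was below every normal rat. The log2 fold change over normal was -0.34 ± 0.09 in DN (adjusted p = 0.0275, edgeR), -0.48 ± 0.14 with SIN at 20 mg/kg (adjusted p = 0.0675, not called) and -0.61 ± 0.10 at 40 mg/kg (adjusted p = 0.00634). The call at 40 mg/kg held without any single rat (adjusted p up to 0.0272), and that in DN was lost without DN replicate 1, 3 or 4 or normal replicate 3 or 4 (adjusted p up to 0.0783) and in the single fit of 16 rats (adjusted p = 0.061). At 20 mg/kg DESeq2 called it (adjusted p = 0.0193), as did edgeR without SIN replicate 4 (adjusted p = 0.0176) and in the single fit (adjusted p = 0.0296).

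Markers of the thick ascending limb, where Casr is concentrated, were lower in part, above all Umod. Their sum over 5 genes, most of it Umod, was 3659 to 4838 CPM in the normal rats, 2121 to 3729 CPM in DN, 3107 to 3277 CPM with SIN at 20 mg/kg and 2375 to 3162 CPM at 40 mg/kg. Of the 5, only Umod was called in DN over normal (19.5% of all genes) and in SIN (40 mg/kg) over normal (5.97%). Umod and Cldn16 were called in SIN (20 mg/kg) over normal (6.36%), all lower (edgeR). The median log2 fold change of the 5 over normal was -0.35 in DN, -0.25 at 20 mg/kg and -0.28 at 40 mg/kg. Slc12a1 was not called, with -0.17 in DN and with 0.17 and 0.18 at 20 and 40 mg/kg, opposite in sign to Casr in the SIN groups. None of the 5 was at 0 in all rats, and their part in the difference of Casr was not tested.

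Pth1r (ENSRNOG00000020948), the parathyroid hormone receptor, was not called in any of the 6 comparisons. It had 566, 511, 400 and 431 CPM in the normal rats, 359, 433, 449 and 605 CPM in the DN rats, 384, 445, 417 and 409 CPM with SIN at 20 mg/kg and 533, 433, 369 and 358 CPM at 40 mg/kg. All groups overlapped, and the 95% interval of the DN over normal log2 fold change was -0.43 to 0.34.

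Counted over the 10 genes, edgeR called 2 in DN over normal, Casr and Atp2b1, both lower, where 19.5% of 15775 genes tested were called in either direction and 10.8% were called lower. In SIN (20 mg/kg) over normal 2 were called, Cyp24a1 and Slc8a1, both higher, against 6.36% of 15877 genes in either direction and 2.77% higher. In SIN (40 mg/kg) over normal 4 were called, Cyp24a1, Calb1 and Slc8a1 higher and Casr lower, against 5.97% of 15735 genes in either direction, 2.28% higher and 3.69% lower. Where the log2 fold change also had to reach 1 in size, the counts were 0 in DN (3.80% of all genes), 1 at 20 mg/kg (Cyp24a1, 2.48%) and 2 at 40 mg/kg (Cyp24a1 and Slc8a1, 2.47%). The share in DN, 2 of 10, was near that of all genes. These comparisons share the normal rats, so their calls are not independent of each other. The 10 genes were chosen with earlier results of these data known, so the shares of all genes give a scale and not a test. Groups did not overlap for 1 gene in DN over normal (24.3% of all genes), 2 in SIN (20 mg/kg) over normal (13.7%) and 3 in SIN (40 mg/kg) over normal (14.3%). The median log2 fold change of the 10 genes was 0.02, -0.07 and 0.00 in these comparisons.

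**Figure D4:**
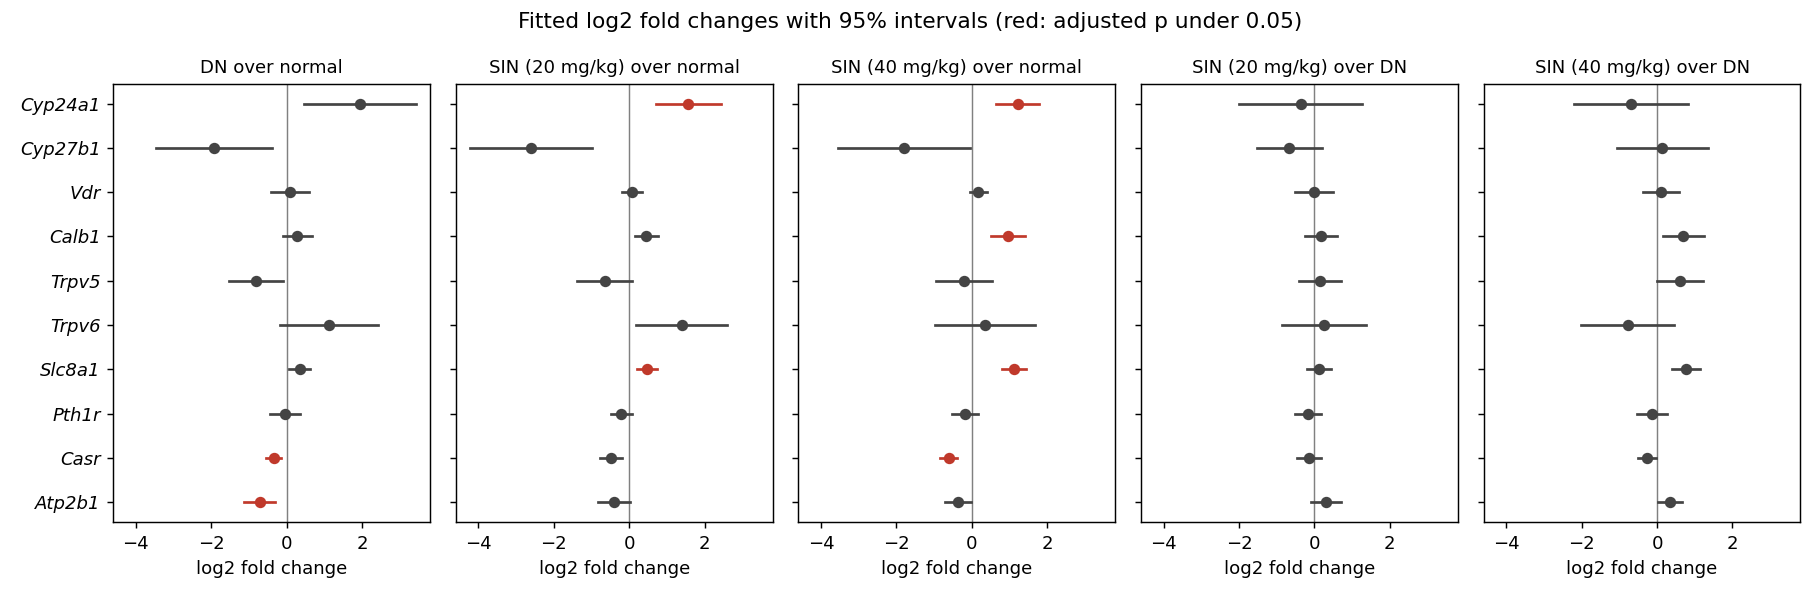
Fitted log2 fold changes (points) with 95% intervals (lines) of the 10 genes in 5 comparisons, with calls at an adjusted p under 0.05 in red. Against normal, 2 genes are red in DN, 2 with SIN at 20 mg/kg and 4 at 40 mg/kg, and against DN none is red.

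Whether SIN changed these genes in the diabetic kidney is answered by the comparisons with DN, and there edgeR called none of the 10 at either dose, as it called 0 (0%) of 15724 genes at 20 mg/kg and 0 (0%) of 15530 genes at 40 mg/kg. At 20 mg/kg the unadjusted p was under 0.05 for 0 of the 10 genes and for 15.4% of all genes, DESeq2 called 0 of the 10, and the groups overlapped for all 10 against 8.99% of all genes without overlap. The log2 fold change of Cyp24a1 was -0.37 with a 95% interval of -1.99 to 1.26, and that of Cyp27b1 was -0.67 (-1.53 to 0.20). These intervals include differences larger than 2-fold, so no likeness of the groups can be read from them. At 40 mg/kg the unadjusted p was under 0.05 for 4 of the 10, against 17.1% of all genes.

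The 4 genes were Slc8a1, Calb1 and Atp2b1 with higher and Casr with lower values in SIN (40 mg/kg) than in DN. Slc8a1 had a log2 fold change of 0.77 ± 0.16 (SE, adjusted p = 0.175, edgeR), with no overlap of the groups, and DESeq2 called it (adjusted p = 0.00618), as the only one of the 10. Without DN replicate 3 its log2 fold change was 0.78. Calb1 had 0.70 ± 0.24 (adjusted p = 0.221), and Atp2b1 0.35 ± 0.14 (adjusted p = 0.259) with groups that did not overlap, 22.3 to 34.2 CPM in DN and 34.7 to 42.2 CPM with SIN. Casr had -0.26 ± 0.11 (adjusted p = 0.271), in the same direction as in DN over normal. Groups without overlap were thus 2 of 10, against 10.4% of all genes. The DN rats stand in both the DN over normal and the SIN over DN comparison, so opposite signs of Atp2b1 in the 2 are not independent observations.

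Smooth muscle and stroma markers differed in these comparisons too, but unevenly among the DN rats. Their sum was 1126 CPM in DN replicate 3, and 516, 448 and 418 CPM in DN replicates 1, 2 and 4. Normal rats ranged from 310 to 446 CPM. The fits of these markers include DN replicate 3, and how far the medians rest on it was not tested. In SIN (40 mg/kg) over DN the median log2 fold change of 10 such markers was -1.09, with 7 lower at an unadjusted p under 0.05, none called by edgeR and 2 by DESeq2. At 20 mg/kg it was -1.24, with 7 lower, none called by edgeR and 3 by DESeq2. In DN over normal the median was 1.14 and edgeR called 3 of the 10 higher, where 19.5% of all genes were called in either direction. Tagln, a smooth muscle protein, was called higher in each group over normal. The part of the stroma markers in the levels of the 10 genes was not tested.

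Between the doses edgeR called none of the 10 genes, against 0.00639% of 15657 genes (1 gene), and DESeq2 called 0 of the 10. The unadjusted p was under 0.05 for Slc8a1 (log2 fold change 0.65 ± 0.16 at 40 over 20 mg/kg, adjusted p = 0.961, edgeR) and Calb1 (0.51 ± 0.21, adjusted p = 0.961), 2 of 10 against 4.98% of all genes. The groups overlapped for all 10 genes, against 3.31% of all genes without overlap.

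Further genes of the pathway, in 7 lists, were called by edgeR against the normal group and not between the other groups, and those named are the called genes with the largest changes. Of 77 genes tested, 11 were called higher and 8 lower in DN over normal, where 19.5% of all genes were called. In SIN over normal 1 was called higher and 8 lower at 20 mg/kg (6.36% of all genes), and 3 higher and 6 lower at 40 mg/kg (5.97%). Of 14 genes of vitamin D synthesis, transport and receptor partners, 1 was called higher and 2 lower in DN over normal (edgeR). Gc, the vitamin D binding protein, fell from 87.5 ± 29.0 CPM in normal to 27.2 ± 15.1 CPM in DN (SD, n = 4; log2 fold change -1.68, adjusted p = 0.0247), and it was the only one of the 14 called in the SIN groups over normal (-2.26, adjusted p = 0.00159, at 20 mg/kg and -1.76, adjusted p = 0.00696, at 40 mg/kg). Dhcr7, which consumes the vitamin D precursor in cholesterol synthesis, rose by 0.90 in DN (adjusted p = 0.0262). Ncor1, a nuclear receptor corepressor, had a log2 fold change of -0.38 (adjusted p = 0.037).

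In DN over normal edgeR called 19.5% of all genes in either direction, and 6.36% and 5.97% in SIN over normal at 20 and 40 mg/kg. Among further genes of transcellular calcium transport, 3 of 10 tested rose in DN over normal and none fell, by edgeR. They were the pump isoform Atp2b2 (log2 fold change 1.14, adjusted p = 0.0288), from 4.87 ± 0.42 to 10.7 ± 4.82 CPM, Bspry (0.66, adjusted p = 0.00846) and the kinase Wnk4 (0.63, adjusted p = 0.0269). Bspry was called higher in both SIN groups as well, and Wnk4 at 40 mg/kg. In the list of paracellular calcium transport and the thick limb, Umod, the most abundant protein of normal urine, was called lower in all 3 groups over normal (log2 fold changes of -0.77, -0.76 and -1.06). It was the only one of 11 genes tested in DN and of 10 with SIN at 40 mg/kg, and Cldn16, a tight junction protein of calcium and magnesium transport, was the other at 20 mg/kg (-0.54, adjusted p = 0.0402).

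Magnesium handling genes of the distal tubule had 3 of 12 called in DN over normal, where edgeR called 19.5% of all genes in either direction. In SIN (20 mg/kg) over normal 3 of 12 were called, against 6.36% of all genes. Egf, a magnesium-regulating growth factor made in the distal tubule, fell from 1283 ± 215 CPM in normal to 589 ± 114 CPM in DN (log2 fold change -1.12, adjusted p = 0.00524, edgeR), and to 520 ± 33.7 and 489 ± 67.5 CPM with SIN at 20 and 40 mg/kg. The channel kinase Trpm7 was also lower in DN (-0.88, adjusted p = 0.0176) and the transporter Slc41a1 higher (0.56, adjusted p = 0.0121). The potassium channel Kcnj10 was lower in both SIN groups (-0.53 and -0.45). Cnnm2 was lower at 20 mg/kg (-0.40, adjusted p = 0.038).

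In parathyroid hormone and calcium receptor signalling, 3 of 15 genes rose in DN over normal and 1 fell, where edgeR called 19.5% of all genes. None was called in either SIN group over normal by edgeR, with 2 at 20 and 3 at 40 mg/kg at an unadjusted p under 0.05. DESeq2 called 0 and 1 of the 15 there. In DN the changes were as follows. The phospholipase Plcb1 fell by 0.74 on the log2 scale (adjusted p = 0.0413), and the G protein subunits Gna11 (0.41, adjusted p = 0.0392) and Gnai2 (0.33, adjusted p = 0.0291) and the kinase subunit Prkaca (0.35, adjusted p = 0.025) rose. Of 8 genes of the FGF23 and phosphate arm tested in DN, Galnt3 fell (-1.40, adjusted p = 0.0257) and the phosphate transporter Slc20a2 rose (0.34, adjusted p = 0.0191). Slc20a2 also rose with SIN at 40 mg/kg (0.32, adjusted p = 0.0374), and at 20 mg/kg none of the 8 was called by edgeR or DESeq2, with 2 at an unadjusted p under 0.05.

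Other reported targets of the vitamin D receptor did not move in a single direction. Over all genes, edgeR called 19.5% in DN over normal. Of 9 tested in DN over normal, Cdkn1a, a cell cycle inhibitor, rose by 0.88 (adjusted p = 0.0377, edgeR) and Slc37a2 by 0.61 (adjusted p = 0.0473), whereas Igfbp3 fell (-0.78, adjusted p = 0.0424). Igfbp3 was called lower in the SIN groups too (-1.09, adjusted p = 0.00523, and -0.93, adjusted p = 0.0392), and Thbd at 20 mg/kg (-0.61, adjusted p = 0.0461). The median log2 fold change of the 9 was 0.17 in DN, 0.23 with SIN at 20 mg/kg and 0.07 at 40 mg/kg, against 0.00 over all genes tested in DN. Over the 7 lists together edgeR called no gene in SIN over DN at either dose or between the doses. The unadjusted p was under 0.05 for 14 of 77 genes at 20 mg/kg, 13 of 76 at 40 mg/kg and 4 of 76 between the doses, and DESeq2 called 3, 4 and 0.

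The tubular injury markers moved with the groups as well. Their sum over 7 genes was 482 to 806 CPM in the normal rats, 912 to 1611 CPM in DN, 1088 to 2535 CPM with SIN at 20 mg/kg and 849 to 1680 CPM at 40 mg/kg. Of the 7, edgeR called 4 higher and 1 lower in DN over normal, where 19.5% of all genes were called in either direction. In SIN over normal it called 3 higher and 0 lower at 20 mg/kg (6.36%), and 2 higher and 1 lower at 40 mg/kg (5.97%). Krt8 and Clu were called higher in each group over normal. Havcr1 was called higher in DN (log2 fold change 2.23, adjusted p = 0.0244, edgeR) and with SIN at 20 mg/kg (3.63, adjusted p = 0.0306), with groups that overlapped. Vcam1, an adhesion molecule, was called lower in DN (log2 fold change -0.98, adjusted p = 0.00457, edgeR) and with SIN at 40 mg/kg (-0.83, adjusted p = 0.00866). The part of injury in the levels of the 10 genes was not tested. The 9 collecting duct markers moved as well, with a median log2 fold change over normal of 0.69 in DN, 0.61 with SIN at 20 mg/kg and 0.69 at 40 mg/kg. Their sum had a median of 1096 CPM in the normal rats and of 1738, 1683 and 1737 CPM in the other groups. Scnn1a was called higher and Slc26a4 and Atp6v1b1 lower in each group over normal, and Aqp3 higher at 40 mg/kg (1.02, adjusted p = 0.0493, edgeR). The part of these markers in the levels of the 10 genes was not tested.

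How far the 10 genes varied together from rat to rat within groups was examined after values were seen, which the adjusted p-values do not take into account. Deviations of log2 CPM from the group mean were correlated over the 16 rats for all 45 pairs, with exact permutation tests within groups, two-sided and adjusted over the pairs. Calb1 and Trpv5, both of the distal tubule, had a Pearson r of 0.76 (exact permutation p = 0.00101, adjusted 0.0456) and a Spearman rho of 0.70 (p = 0.00644, adjusted 0.108), and r was 0.66 without the 2 rats farthest from the median of Calb1. Vdr and Pth1r had a Pearson r of 0.69 (exact permutation p = 0.00458, adjusted 0.103) and a rho of 0.74 (p = 0.00106, adjusted 0.0479), with an r of 0.75 without the 2 farthest rats. Calb1 and Slc8a1 had an r of 0.78 (exact permutation p = 0.00745, adjusted 0.112), and 0.56 without the 2 farthest rats. Cyp24a1 and Vdr had an r of 0.76 (exact permutation p = 0.0803, adjusted 0.407), and 0.52 without the 2 farthest rats. Cyp24a1 and Casr had a negative r of -0.59 that was not called (exact permutation p = 0.0187, adjusted 0.21), and -0.76 without the 2 farthest rats. The unadjusted Pearson p was under 0.05 for 5 of the 45 pairs. Each coefficient called 1 pair, and no pair was called by both.

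Over all 16 rats and 16404 genes, the gene whose log2 CPM was most like that of Calb1 was Slc8a1 (Pearson r = 0.90), followed by Clps (0.87) and Hif1an (0.85). For Cyp24a1 the nearest were Rnf183 (0.84), an unnamed assembled transcript (0.83) and Fam151b (0.80). Rnf183 shared the wide spread of the DN group, 21.6 to 99.1 CPM against 36.7 to 50.4 CPM in the normal rats. Cyp27b1 was nearest to Cct2 (0.87), Acaa2 (0.82) and Trabd2b (0.82), and Trpv5 to LOC500475 (0.88), Tigd2 (0.83) and Dyrk2 (0.82). These are the highest of many correlations, the rats share groups and libraries, and no test is attached to them.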

How the data were processed

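Renal RNA of 16 rats was sequenced by the authors after oligo(dT) selection, with reads trimmed by SeqPrep and Sickle and aligned with TopHat 2.1.1 to Rnor_6.0. The submitters' processing notes also name Bowtie, RSEM and edgeR. The deposited table holds estimated counts per gene before normalization (86.2% of values were whole within 0.000001), which were rounded here. Group means and 4 libraries without a sample record were not used. Each comparison of 4 with 4 rats was fitted separately in edgeR 4.0.16 (filterByExpr, TMM, quasi-likelihood test, Benjamini-Hochberg adjustment over all genes tested, threshold 0.05). Log2 CPM used a prior count of 2. Alternatives were DESeq2 1.42.0, RLE normalization, testing without a filter, a minimum of 10 counts in each rat of a comparison, a single fit of the 16 rats, a replicate block, an added threshold of 1 on the absolute log2 fold change, and each rat left out. For the other gene lists and markers only DESeq2 was tried. The labels do not say how rats were housed or processed. The p-values set a group difference against the spread between these samples, and do not separate the group from such conditions. In simulated data for DN over normal, with 15879 genes tested, 99.5% of 197 genes changed by a log2 fold change of 2 were called, and 14 unchanged genes. The spread between simulated rats was a dispersion of 0.05 for every gene, and only genes with a mean of at least 10 counts were changed. The simulation therefore does not give the power for smaller changes or for genes as uneven as Cyp24a1 in DN. The named genes are the 10 members, called genes of the other lists (up to 4 per list and comparison) and the 3 genes nearest by Pearson r to each of 4 members. Some genes that meet this rule are not reported here. Members and lists were chosen with earlier results of these data known, and the pair correlations after values were seen. Promoters came from RefSeq (GRCr8). In the genes' RefSeq spans, 1 long noncoding RNA overlaps Cyp24a1 and 1 overlaps Vdr, and strand use in counting is not given in the sources used here. R 4.3.3 and Python 3.11.15 were used.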

Additional observations from a re-analysis of the deposited data

Results flagged for a closer look

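Of 40 sets of 4 rats (10 genes in 4 groups), 1 held a rat far from the others. Trpv5 was at 2.97 CPM in DN replicate 1 and between 4.79 and 5.05 CPM in the other DN rats. Chance flags about 1 in 20 such sets. Without this rat, the log2 fold change of Trpv5 in SIN (20 mg/kg) over DN went from 0.15 to -0.01, and it was called in neither case by edgeR.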

How the results depend on the processing

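The number of the 10 genes called depended on the tool and threshold in 4 of the 6 comparisons. In DN over normal it was 2, and 5 with DESeq2, 0 when the log2 fold change had to reach 1 in size, 0 with a replicate block and 0 to 2 with 1 rat left out. In SIN (20 mg/kg) over normal it was 2, and 5 with DESeq2, 1 with the fold threshold, 1 with no filter, 0 with the replicate block and 0 to 2 with 1 rat left out. With all 16 rats in a single fit it stayed at 2 with other genes, since Cyp24a1 and Slc8a1 were lost and Cyp27b1 and Casr were called. In SIN (40 mg/kg) over normal it was 4, and 2 with the fold threshold and 2 to 4 with 1 rat left out. In SIN (40 mg/kg) over DN it was 0, and 1 with DESeq2. RLE normalization and at least 10 counts in every rat left each of the 6 counts within 1.5 times. Over all genes DESeq2 called 4151 in DN over normal, 197 and 418 in SIN over DN at 20 and 40 mg/kg, 20 between the doses, and 1707 and 1778 in SIN over normal, against 3074, 0, 0, 1, 1009 and 940 by edgeR.

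Of 834 alternative log2 fold changes of the 10 genes, 752 kept direction and side of the threshold, 43 lost a call, 15 gained one, and 24 changed sign, all of the latter from values of at most 0.37 in size that were not called. With the replicate block, the signs of Cyp24a1 (0.12) and Vdr (0.049) in SIN (20 mg/kg) over DN and of Cyp27b1 (-0.094) in SIN (40 mg/kg) over DN changed. With 1 rat left out, the range in DN over normal was -0.077 to 0.25 for Vdr and -0.21 to 0.063 for Pth1r. In SIN (20 mg/kg) over DN it was -0.73 to 0.26 for Cyp24a1, -0.19 to 0.15 for Vdr and -0.021 to 0.29 for Trpv5. In SIN (40 mg/kg) over DN it was -0.54 to 0.43 for Cyp27b1, -0.093 to 0.26 for Vdr and -0.25 to 0.032 for Pth1r. Between the doses it was -0.10 to 0.11 for Pth1r, -0.24 to 0.0059 for Casr and -0.067 to 0.18 for Atp2b1, and in SIN (40 mg/kg) over normal -0.42 to 0.11 for Trpv5. The cause of these changes was not tested, beyond the smaller number of rats.

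Replicate numbers did not pair the rats, since deviations of same-numbered rats correlated between -0.24 and 0.24 over 24 pairs, with 2 over 0.1, and those of other rats between -0.22 and 0.23. The block lowered the all-gene count in DN over normal to 1325. Depth limits Trpv6 and Cyp27b1, which had as few as 3 and 12 counts.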
